A study of Mus musculus with 55 samples.

Results

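Most of the genes described here encode proteins of the cytosolic ribosome. They were taken by symbol, as every mouse gene whose symbol starts with Rpl or Rps followed by a digit, plus Rplp0, Rplp1, Rplp2 and Rpsa, without the S6 kinase genes (Rps6k), the Rps19bp genes and symbols that mark a pseudogene. The rule found 89 genes among 28492 genes of the maturation experiment and 89 among 28216 genes of the stimuli experiment. By symbol, 51 belong to the large 60S subunit, 35 to the small 40S subunit and 3 to the P-stalk. A symbol alone does not show that a gene makes a ribosomal protein, which was not checked gene by gene.

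RNA was measured by 3′ sequencing (CEL-Seq2) in forebrain primary cultures, from cortex and hippocampus, of CD1 mouse embryos of mixed sex taken at embryonic days 16 to 17.5. In the maturation experiment (28 libraries), cultures kept for 7 days in vitro (7DIV) or for about 3 weeks (21DIV, labelled 23 days in the sample titles) were left unstimulated (basal, 3 libraries at each stage), were depolarized with 55 mM KCl for 15 or 180 min (3 libraries a group), or received 50 µM bicuculline, a blocker of GABA-A receptors, with 2.5 mM 4-aminopyridine (Bic+4AP) for 15 or 180 min (3 libraries a group at 7DIV, 2 at 21DIV). In the stimuli experiment (27 libraries, all 21DIV), cultures were basal (3 libraries), or received 55 mM KCl or 50 µM bicuculline alone (Bic) for 15, 45 or 180 min (2 libraries a group), with no silencing beforehand. A second arm was silenced with 1 µM tetrodotoxin (TTX), a sodium channel blocker, for 48 h (basal TTX, 4 libraries), after which TTX was washed out for 15, 45 or 180 min (TTXw, 3, 2 and 3 libraries), with controls handled and washed in the same way. The sources do not say whether the libraries of a group came from separate litters or cultures, so p-values measure only the spread between these libraries. The libraries held 1659722 to 14012872 gene counts in the maturation experiment and 1177500 to 3909487 in the stimuli experiment.

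The ribosome joins ribosomal RNAs and a set of proteins, most of them made from a gene of their own, into a small subunit that reads the mRNA and a large subunit that forms the peptide bond. Rplp0, with its partners Rplp1 and Rplp2, forms the P-stalk of the large subunit, which recruits the translation factors that hydrolyse GTP. Ribosomal protein mRNAs are the best known TOP mRNAs: they start with a C followed by a run of C and T bases, through which mTORC1 and the RNA-binding protein LARP1 control their translation, so that the amount of these mRNAs and the amount of protein made from them can part. In neurons, ribosomal protein mRNAs are also found in axons and dendrites.

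The stretch around the annotated transcription start is shown for 9 genes named below, some with a long run of C and T near it and some without. Each sequence holds 15 bases before and 15 bases from the start that RefSeq gives for GRCm38.p6, on the transcribed strand from 5′ to 3′, and capitals mark the longest run of C and T that comes within 5 bases of that start. The first 6 carry runs of 9 to 19 bases, and the last 3 carry runs of 4 bases or fewer. A run near the start is not by itself a TOP start. The base at the annotated start is C in Rpl15 and Rpl14, T in Rpl27a and Rps9, and G in Rpl22l1 and Rpl4. In Rpl4 the whole run lies before that start.
Rpl15: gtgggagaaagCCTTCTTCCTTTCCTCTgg
Rpl27a: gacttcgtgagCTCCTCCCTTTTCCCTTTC
Rpl14: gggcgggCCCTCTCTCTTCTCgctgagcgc
Rps9: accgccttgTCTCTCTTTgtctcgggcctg
Rpl22l1: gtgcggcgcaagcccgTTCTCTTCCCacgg
Rpl4: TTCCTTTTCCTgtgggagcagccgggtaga
Rplp0: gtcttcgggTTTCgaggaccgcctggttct
Rpl5: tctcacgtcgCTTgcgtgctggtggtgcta
Rpl23: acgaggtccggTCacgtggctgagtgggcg
These windows lie at chr14:18270972-18271001 (minus strand, Rpl15), chr7:109519180-109519209 (plus, Rpl27a), chr9:120571502-120571531 (plus, Rpl14), chr7:3704026-3704055 (plus, Rps9), chr3:28805493-28805522 (plus, Rpl22l1), chr9:64173372-64173401 (plus, Rpl4), chr5:115559452-115559481 (plus, Rplp0), chr5:107900513-107900542 (plus, Rpl5) and chr11:97782425-97782454 (minus, Rpl23). A run of at least 7 bases was present in 31 of the 68 ribosomal protein genes with a window (45.59%), in 15.72% of 27025 genes and in 13.04% of the 69 genes for mitochondrial ribosomal proteins, which belong to a separate ribosome. The letters CTTTC occurred in 19 of the 68 windows (27.94%) and in 4.759% of all genes. On the opposite strand the same letters occurred in 4.412% of the ribosomal protein genes and 4.215% of all genes. A missing run says only that these letters do not lie at the annotated start, which can differ from the start used in these cells.

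Of the 89 genes, 61 passed the filter on low counts in the maturation experiment (more than 5 CPM, a gene's count scaled by the total of its library, in at least 2 libraries), 57 passed in the stimuli experiment, 55 passed in both and 26 in neither. A filter of this kind can keep a gene for the group where it is high. The genes that did not pass held 0.376% and 0.363% of the counts on ribosomal protein genes in the maturation and stimuli experiment, with mean levels of at most 2.685 and 2.286 CPM. Levels were given as CPM of the transcript with the most counts per gene. For Rpl22 and Rps9, in both experiments, that transcript is a RefSeq record of the non-coding class. Their levels below need not be those of the coding mRNA. With 3′ sequencing a transcript is counted near its end, so the level was not divided by length.

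Mean levels ranged from 0.0832 CPM (Rps23rg1) to 1101 CPM (Rpl23) in the maturation experiment. The 3 highest genes in the stimuli experiment, Rpl4, Rpl23 and Rps20, held 42.29% of the CPM on ribosomal protein genes. Rpl4, a protein of the polypeptide exit tunnel, averaged 951 CPM over the maturation libraries and 1725 CPM over the stimuli libraries, and Rpl23 averaged 1120 CPM over the latter. Near the other end, Rpl10a, a large subunit protein, had 11 counts over all 28 maturation libraries and 3 counts over all 27 stimuli libraries. Rps27a, which is made as a fusion with ubiquitin, had 183 and 58 counts, Rpl3 had 47 and 133, and Rpsa, also known as the laminin receptor, had 307 and 82.

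Many ribosomal protein genes have processed pseudogenes and retrogenes with nearly the same sequence, and reads that match several places cannot be assigned to one of them. How such reads were treated is not given in the sources used here. For 86 of the 89 genes, the last 300 bases of a transcript (GENCODE annotation) were compared with the transcripts of all other genes in windows of 50 bases. Whether the reads of a gene were counted at that end was not checked, so a low share does not make its level certain. Among genes that passed the filter in the maturation experiment, a median of 46.02% of the windows recurred in another gene. Among genes that did not pass, the median was 77.49%. Rpl10a and Rps27a shared 86.85% of their windows with other genes, whereas Rpl4, Rps20, Rpl15, Rplp0, Rps3, Rpl22, Rpl14, Rpl27a and Rps27l shared 0%. The level of a gene with a high share, and a change in it, is therefore uncertain: this touches Rpl9 (100%, 11 other genes), Rpl13 (83.27%, 14 genes), Rps6 (83.27%, 11 genes), Rpl22l1 (80.08%, 4 genes), Rps3a1 (76.1%, 10 genes) and Rpl7 (74.1%, 11 genes) among the genes named below. Rpl36al (70.12%), Rplp1 (66.93%), Rps25 (63.75%), Rps26 (62.55%) and Rps4x (62.15%) had lower shares, still above 50%. Rpl37rt, a retrogene copy of Rpl37, could not be matched to a transcript and is uncertain for the same reason. All windows of Rpl5 recurred in 1 gene, Dipk1a (named Fam69a in that annotation), which overlaps it on chromosome 5.

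**Figure D1:**
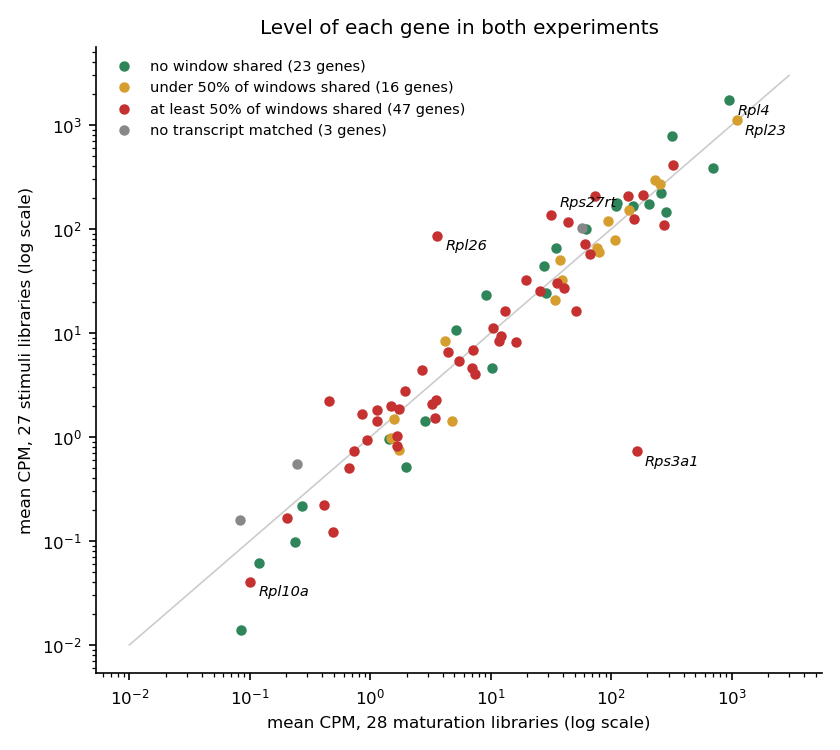
Mean level of each ribosomal protein gene in the 28 maturation libraries (x axis, CPM, log scale) and in the 27 stimuli libraries (y axis, CPM, log scale), 1 point per gene, coloured by the share of 50-base windows near its 3′ end found in other genes, with a grey line of equal levels. Rps3a1 lies far below the line and Rpl26 far above it.

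For 9 of the 89 genes no maturation library overlapped a stimuli library, 3 being higher in the former (Rpl30, Rpl41, Rps3a1) and 6 in the latter (Rpl4, Rpl5, Rpl13, Rpl26, Rps20, Rps27rt). The share of all genes without such overlap was not counted, so the 9 of 89 cannot be read as particular to these genes. The tables were made separately, so these differences carry no test. Rps3a1, a small subunit protein, ranged from 124 to 197 CPM over the maturation libraries and from 0 to 4.1 CPM over the stimuli libraries. Rpl26 went the other way, with 1.09 to 8.02 CPM in the maturation libraries and 65.1 to 131 CPM in the stimuli libraries. Rps27rt, a retrogene copy of Rps27, ranged from 20.1 to 44 CPM and from 95.8 to 196 CPM. In these 3 genes 76.1%, 64.14% and 88.45% of the windows recur elsewhere. Rpl4 and Rps20, with 0% of their windows shared, reached at most 1174 and 409 CPM in the maturation libraries and had at least 1372 and 588 CPM in the stimuli libraries. Values are therefore compared below only within an experiment.

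Ribosomal protein mRNAs held a lower share of gene counts in 21DIV than in 7DIV basal cultures. Most of the genes tested did not pass an adjusted p under 0.05 singly. The share of gene counts that fell on the 89 genes was 0.757%, 0.761% and 0.791% in the 7DIV basal libraries and 0.664%, 0.539% and 0.615% in the 21DIV basal libraries, with no overlap. Depth separated these groups too, with 1659722 to 3664631 gene counts at 7DIV and 5578041 to 9254444 at 21DIV. Its part in the share was not tested. The 95% Wilson interval of a library's share, which covers counting error only, was at most 0.037 percentage points wide. With counts summed over all transcripts of a gene, the 7DIV share was 0.300% to 0.315%, so the size of the share depends on how a gene is counted. In bulk RNA, fewer cells of a type and less RNA per cell cannot be told apart. Of 55 genes tested with edgeR's quasi-likelihood test, 13 fell at an adjusted p under 0.05 (17.9% of the 10510 genes tested fell) and 0 rose (20.4% of genes rose). The median log2 fold change was -0.21, against 0.01 over all genes tested, and 40 of the 55 genes lay below 0. At least 1.5-fold lower were 5 genes (14.9% of genes) and 0 were as much higher (18.2%). Without 21DIV basal replicate 2, 8 genes fell in place of 13, and without 21DIV basal replicate 1, 19 fell. The 5 genes at 1.5-fold became 10 without 7DIV basal replicate 3 and 8 without 21DIV basal replicate 1.

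**Figure D2:**
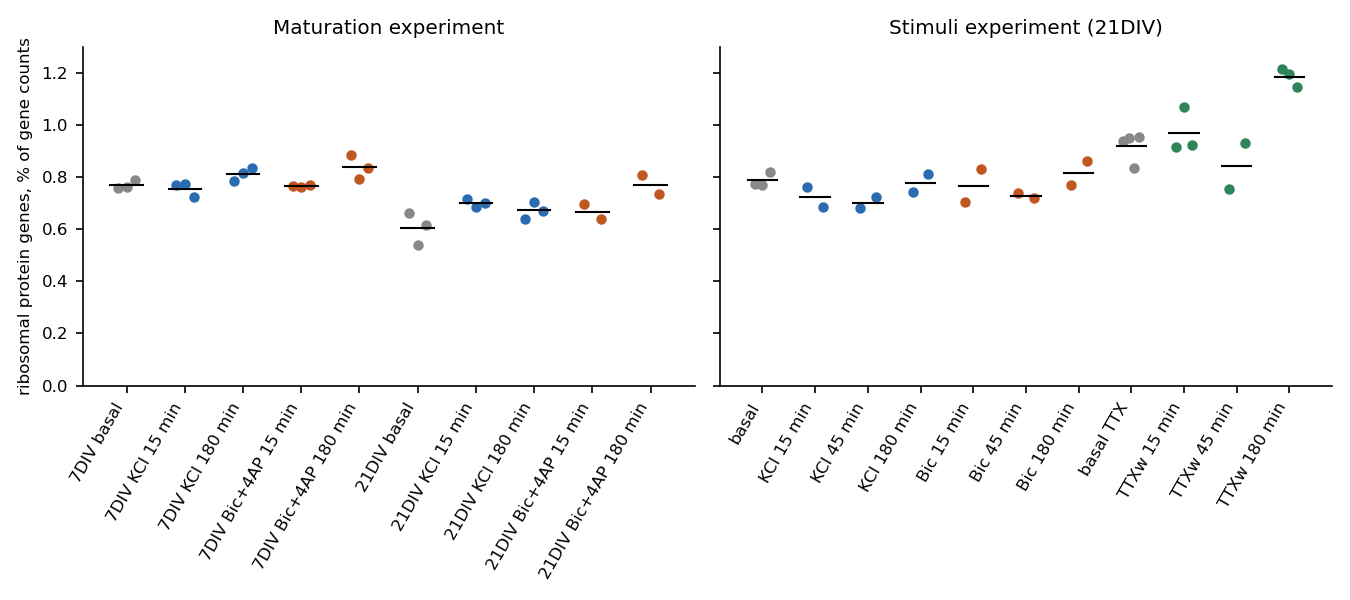
Share of gene counts on the 89 ribosomal protein genes (y axis, percent) in each library of the maturation experiment (left) and the stimuli experiment (right), 1 point per library, with a line at the group mean. The 21DIV basal libraries (0.539% to 0.664%) lie below the 7DIV basal libraries (0.757% to 0.791%), and the TTXw 180 min libraries (1.146% to 1.214%) lie above every other library.

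The P-stalk did not move as a block. Rplp0, its base, had 84.7, 71.7 and 89.5 CPM at 7DIV and 39.3, 37.3 and 37.7 CPM at 21DIV. The groups were far apart, and Rplp0 fell by 1.09 on the log2 scale (SE 0.16, adjusted p = 0.00011), the largest fall among the ribosomal protein genes tested. Its partner Rplp1 had 179, 170 and 178 CPM at 7DIV and 201, 153 and 167 CPM at 21DIV, groups that overlap (log2 fold change -0.00, SE 0.14). Rplp2 likewise overlapped, with 68.8, 90.4 and 76.1 CPM against 83.2, 70.8 and 78.8 CPM (0.01, SE 0.16). A p above the threshold does not show that these 2 genes had equal levels at both stages.

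In the large subunit 7 of 30 genes fell (median log2 fold change -0.28). Rpl15 had 384, 363 and 393 CPM at 7DIV and 224, 195 and 210 CPM at 21DIV, a fall by 0.84 (SE 0.12, adjusted p = 9.5e-05). Rpl22, an RNA-binding protein of the large subunit, had 161, 165 and 195 CPM against 116, 87.5 and 98.6 CPM, and fell by 0.77 (SE 0.15, adjusted p = 0.00092). Rpl7 had 23.9, 18.7 and 25.7 CPM against 13.9, 10.4 and 10.5 CPM, and fell by 0.97 (SE 0.25, adjusted p = 0.0070). None of these groups overlapped. Among the highest genes, Rpl4 had 1025, 1099 and 1049 CPM against 789, 733 and 683 CPM (-0.51, SE 0.11, adjusted p = 0.0021). Rpl23 had 1090, 1227 and 1153 CPM against 991, 788 and 931 CPM (-0.34, SE 0.12, adjusted p = 0.036). Rpl8 and Rpl32 also fell, by 0.46 and 0.49. Rpl27a had the highest log2 fold change of the 55 genes, 0.50 (SE 0.19, adjusted p = 0.051), with 81.9, 124 and 94.7 CPM at 7DIV and 108, 159 and 149 CPM at 21DIV, which overlap.

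In the small subunit 5 of 22 genes fell (median -0.25). Rps9 had 174, 168 and 181 CPM at 7DIV and 113, 109 and 113 CPM at 21DIV, and fell by 0.62 (SE 0.13, adjusted p = 0.0016). Rps3, Rps3a1 and Rps26 fell by less than 1.5-fold, with falls between 0.51 and 0.55. Rps6, the substrate of the S6 kinases, was low in these libraries, with 8.44 to 10.4 CPM at 7DIV and 5.92 to 8.75 CPM at 21DIV (-0.31, SE 0.33), and did not pass the test.

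Lists of other translation genes were counted against the 14.9% of all genes that fell and the 18.2% that rose at least 1.5-fold. Rack1, a scaffold protein on the head of the small subunit, fell by 0.77 (SE 0.13, adjusted p = 0.00036), with 328, 308 and 293 CPM against 198, 160 and 178 CPM. Of 9 genes tested on a list of elongation factors and genes named after them, 6 fell at least 1.5-fold and 1 rose. The genes that fell include Eef2k, which encodes a kinase, and Eef1e1, so they are not all elongation factors. Eef1a1 and Eef2 each fell by 0.62 (SE 0.13 and 0.12). Of 63 ribosome biogenesis genes 11 fell and 0 rose at least 1.5-fold. Of 38 genes listed with the initiation factors, not all of them factors, 9 fell and 0 rose. The 71 genes for mitochondrial ribosomal proteins had a median of 0.10, with 4 higher and 2 lower. All of these lists were drawn up with earlier results of the data known.

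Levels of cell type markers differed between the stages. Whether this reflects the number of cells of a type or the RNA per cell cannot be told from bulk RNA. The summed level of 11 astrocyte markers was 601 to 898 CPM at 7DIV and 4835 to 5792 CPM at 21DIV, and 10 of the 11 were at least 1.5-fold higher. All 9 oligodendrocyte lineage markers tested were higher (465 to 741 CPM against 2544 to 3297 CPM). The summed level of 14 neuron markers was 10854 to 10929 CPM at 7DIV and 8633 to 9475 CPM at 21DIV, with 8 markers higher and 4 lower at least 1.5-fold. Of 9 proliferation markers tested 3 were higher (Mki67, Cenpf and Cdk1) and 0 lower, with a summed level of 95.2 to 126 CPM against 141 to 241 CPM. Aif1, the 1 microglia marker tested, was lower by 1.70 on the log2 scale (SE 0.37, adjusted p = 0.0024), and the microglia markers summed to 10.3 to 18.1 CPM against 4.3 to 9.16 CPM. No marker of these lists was at 0 in every library of a group. The part of these differences in the change of the ribosomal protein genes was not tested.

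**Figure D3:**
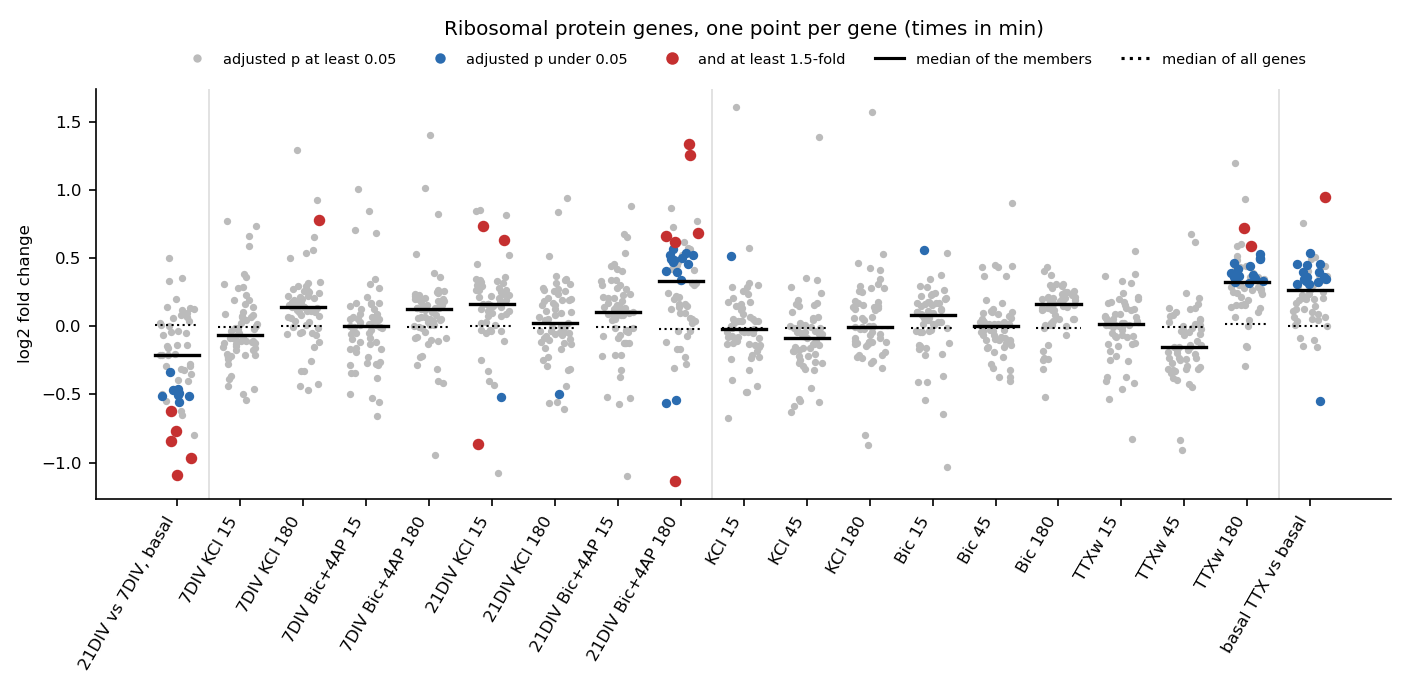
Log2 fold change (y axis) of each ribosomal protein gene tested in 19 comparisons (x axis, times in min), 1 point per gene, grey at an adjusted p of at least 0.05, blue under 0.05 and red where the fold was also at least 1.5, with solid and dotted lines at the median of these genes and of all genes tested. The medians of ribosomal protein genes lie at -0.21 for 21DIV against 7DIV, at 0.33 for Bic+4AP 180 min at 21DIV and TTXw 180 min, and at 0.26 for basal TTX.

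At 7DIV 1 ribosomal protein gene passed the test after any stimulus, and few genes of any kind did. After 15 min of KCl, and after 15 and 180 min of Bic+4AP, 0 of 61 genes passed an adjusted p under 0.05 in edgeR's test, and 0% of all 11746 genes tested did. At an unadjusted p under 0.05 the counts were 0 after KCl 15 min (2.84% of genes higher, 2.78% lower), 0 after Bic+4AP 15 min (3.35% and 3.41%) and 3, all higher, after Bic+4AP 180 min (2.67% and 3.29%). DESeq2's Wald test also passed 0 in these 3 comparisons. After 180 min of KCl, Rps15a, a small subunit protein, had 38.8, 41.8 and 49.9 CPM in place of 30.9, 21.7 and 25.9 CPM. The groups did not overlap, and Rps15a rose by 0.78 (SE 0.20, adjusted p = 0.037), the single gene to do so (1.05% of genes were at least 1.5-fold higher). It passed in only 7 of 16 alternative settings, and missed the threshold without 7DIV basal replicate 3 or 4, or without KCl replicate 2 or 3, with adjusted p-values of 0.0908 to 0.186.

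At 21DIV 4 ribosomal protein genes passed the test after 15 min of KCl, shares near those over all genes. After 15 min of KCl, 2 genes were at least 1.5-fold higher (3.21% of genes) and 1 lower (3.02%), with a median of 0.17 and 48 of 61 genes above 0. At an adjusted p under 0.05 alone, 2 rose (3.81%) and 2 fell (4.33%). Rps27l, a paralogue of Rps27 known as a target of p53, had 64.9, 50.1 and 57.2 CPM after KCl and 40.3, 24.2 and 37.3 CPM in basal cultures, and rose by 0.73 (SE 0.20, adjusted p = 0.021). Rpl22l1, the paralogue of Rpl22, had 101, 84.4 and 68.7 CPM against 67.5, 38.4 and 55.7 CPM, and rose by 0.63 (SE 0.19, adjusted p = 0.035). For both genes every stimulated library lay above every basal library, for Rpl22l1 by little. Rpl5, which carries the 5S ribosomal RNA into the large subunit, had 30, 30.3 and 33.9 CPM against 33.6, 73.5 and 60.1 CPM, and fell by 0.87 (SE 0.24, adjusted p = 0.022), although 1 stimulated library lay above the lowest basal one. These 3 calls rest on few libraries: 0 of them remained without 21DIV basal replicate 2, and 1 call was made without basal replicate 3, KCl replicate 1 or KCl replicate 2.

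In the maturation experiment Rpl15 fell at 21DIV after KCl at both times and after 180 min of Bic+4AP. It had 168, 152 and 125 CPM after 15 min of KCl, 158, 184 and 120 CPM after 180 min of KCl, and 156 and 134 CPM after 180 min of Bic+4AP, against 224, 195 and 210 CPM in basal cultures. None of these libraries reached a basal one. The falls were 0.52 (SE 0.13, adjusted p = 0.012), 0.50 (SE 0.13, adjusted p = 0.020) and 0.54 (SE 0.15, adjusted p = 0.013). The 3 comparisons share their basal libraries and are not independent. In the stimuli experiment, also at 21DIV, Rpl15 had log2 fold changes of 0.13 (SE 0.14) after 15 min and 0.25 (SE 0.15) after 180 min of KCl, which did not pass the test. At 7DIV, where Rpl15 was higher to begin with, its log2 fold changes were between -0.06 and 0.11. The difference between the stages had unadjusted p-values of 0.0020, 0.024 and 0.0074 and adjusted p-values of 0.071, 0.27 and 0.091. After 180 min of KCl at 21DIV 0 of 61 genes were at least 1.5-fold changed (2.98% of genes higher, 1.91% lower), Rpl15 being the single gene at an adjusted p under 0.05 (3.38% of genes higher, 2.83% lower). At an unadjusted p under 0.05, 6 were higher and 3 lower (10.2% and 10.5%). DESeq2 passed 2 higher and 1 lower at an adjusted p under 0.05. After 15 min of Bic+4AP 0 genes passed in edgeR's test or in DESeq2 (0.0511% of genes passed, all higher), with 5 higher and 0 lower at an unadjusted p under 0.05 (2.75% and 2.54%).

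**Figure D4:**
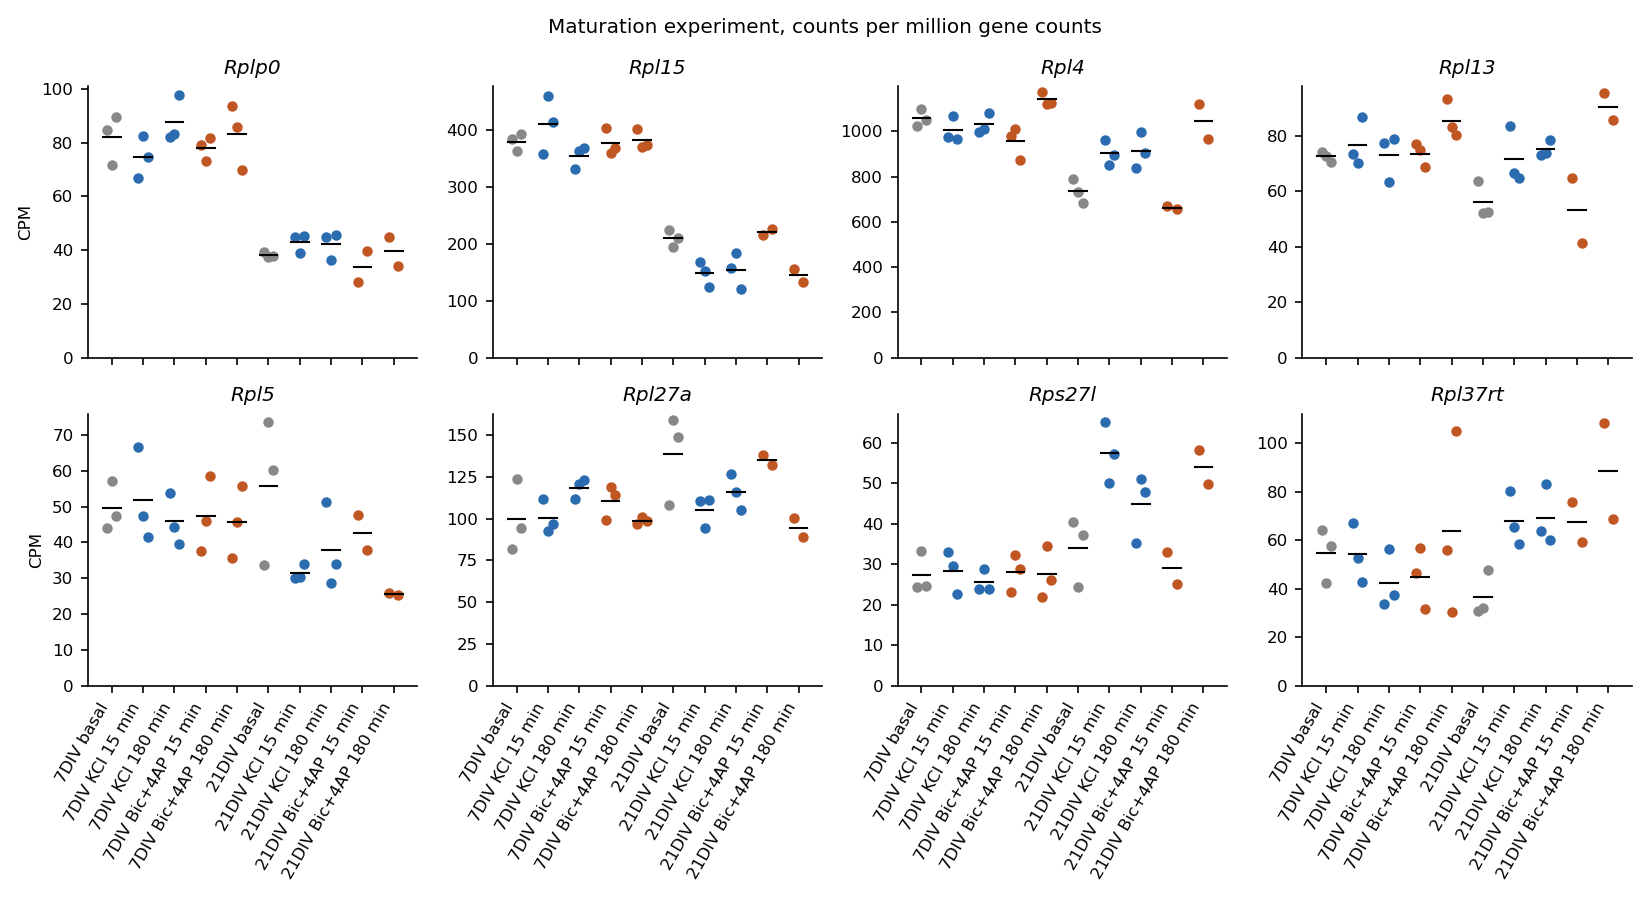
Level (y axis, CPM, from 0) of 8 ribosomal protein genes in each library of the maturation experiment, by stage and stimulus (x axis), 1 point per library with a line at the group mean. Rplp0 and Rpl15 lie lower at 21DIV than at 7DIV, and Rpl5, Rpl27a and Rpl15 lie lower after 180 min of Bic+4AP at 21DIV while Rpl37rt, Rpl13 and Rpl4 lie higher.

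After 180 min of Bic+4AP at 21DIV more ribosomal protein genes rose than fell. At an adjusted p under 0.05, 17 of 61 genes rose (8.79% of genes) and 3 fell (8.32%), the median was 0.33 against -0.02 over all genes, and 49 genes lay above 0. Of the rises, 9 were among 32 large subunit genes and 8 among 26 small subunit genes, and 0 of the 3 P-stalk genes changed. At least 1.5-fold higher were 5 genes (7.39% of genes), and 1 was as much lower (6.84%).

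Rpl37rt had 108 and 68.8 CPM against 30.7, 31.9 and 47.7 CPM in basal cultures and rose by 1.25 (SE 0.32, adjusted p = 0.0070). Rpl13 had 95.4 and 85.7 CPM against 63.8, 52.3 and 52.6 CPM and rose by 0.68 (SE 0.17, adjusted p = 0.0050). Rps27l, with 58.1 and 49.9 CPM, rose by 0.66 (SE 0.22, adjusted p = 0.041). In all 3 genes both stimulated libraries lay above every basal one. Rpl9, outside the naming rule for its low level and named here after its values were seen, had 3.9 and 4.61 CPM against 1.43 to 1.76 CPM (1.34, SE 0.44, adjusted p = 0.037). The call was lost in 7 of 13 alternatives, among them leaving out any 1 library of the compared groups, with adjusted p-values of up to 0.286. The highest genes rose by less: Rpl4 had 1122 and 964 CPM against 789, 733 and 683 CPM (0.50, SE 0.10, adjusted p = 0.00080), and Rpl23 had 1228 and 1072 CPM against 991, 788 and 931 CPM (0.34, SE 0.11, adjusted p = 0.025). Rpl22 rose by 0.57 (SE 0.13, adjusted p = 0.0038).

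The 3 genes that fell were Rpl5, Rpl27a and Rpl15. Rpl5 had 26 and 25.2 CPM, below every basal library, and fell by 1.13 (SE 0.28, adjusted p = 0.0062). Dipk1a, which overlaps Rpl5 and shares the sequence of its 3′ end, had a log2 fold change of 0.07 (SE 0.19), and of 0.05 (SE 0.16) after 15 min of KCl. Rpl27a had 100 and 88.9 CPM against 108, 159 and 149 CPM and fell by 0.56 (SE 0.17, adjusted p = 0.020). Rpl27a and Rpl15 carry the longest C and T runs of the sequences shown above and Rpl5 carries a run of 3 bases. Rpl4, with a run of 11 bases, rose in this comparison, and a link between runs and changes was not tested.

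The counts in this comparison depend on single libraries, since the group holds 2. Without Bic+4AP replicate 2, 1 gene rose and 1 fell at an adjusted p under 0.05, and without replicate 3, 11 rose and 1 fell. Without 21DIV basal replicate 2 there were 5 rises and without basal replicate 3 there were 10. In a fit of the compared groups alone 6 genes rose. The 6 genes at 1.5-fold became 13 without basal replicate 1, 3 without basal replicate 2 and 2 without Bic+4AP replicate 2. The cultures differed in other ways too: 4 of 11 astrocyte markers were at least 1.5-fold lower and 0 higher, with a summed level of 1808 to 3471 CPM against 4835 to 5792 CPM. The oligodendrocyte lineage markers had 4 of 9 lower and 1 higher, and 4 of 9 proliferation markers were lower. The part of these markers in the result was not tested.

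Beyond the ribosome, the poly(A)-binding protein gene Pabpc1 and the translational repressor gene Eif4ebp1 rose by 1.14 (SE 0.31, adjusted p = 0.011) and 1.11 (SE 0.25, adjusted p = 0.0021). Of 38 genes listed with the initiation factors 4 were at least 1.5-fold higher and 1 lower, and of 66 ribosome biogenesis genes 4 were higher and 5 lower. Over all genes 7.39% were higher and 6.84% lower, so these counts are not read as a response of the lists.

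Whether the response differed between the stages was tested with an interaction term. No ribosomal protein gene passed an adjusted p under 0.05 for any of the 4 stimuli in edgeR's test. Of all genes, 0.86% and 1.17% passed with a more positive and a more negative response at 21DIV for KCl 15 min, 0.434% and 0.341% for KCl 180 min, 0.00851% and 0% for Bic+4AP 15 min, and 2.58% and 2.38% for Bic+4AP 180 min. For KCl 15 min, 11 genes had a more positive response at 21DIV and 4 a more negative one at an unadjusted p under 0.05 (7.4% and 8.21% of genes), and for Bic+4AP 180 min 9 and 3 (9.9% and 9.96%). For KCl 180 min the counts were 2 and 3 (7.01% and 7.34%), and for Bic+4AP 15 min 3 and 0 (2.56% and 2.43%). DESeq2 passed 3 genes for KCl 15 min, 1 for Bic+4AP 180 min and 0 for the other stimuli. For KCl 15 min Rpl22l1 had the most positive difference of the 61 genes, 1.00 (SE 0.28, adjusted p = 0.056), and Rpl5 a difference of -0.94 (SE 0.35, adjusted p = 0.17).

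In the stimuli experiment no ribosomal protein gene passed the test at 1.5-fold after KCl or Bic. In the 6 comparisons 0 of 57 genes were called, against 4.52%, 0.607% and 0.507% of genes higher after 15, 45 and 180 min of KCl and 2.4%, 4.5% and 0.69% after Bic. Lower were 2.69%, 0.158% and 0.258% of genes after KCl and 1.01%, 2.95% and 0.0748% after Bic. At an unadjusted p under 0.05, 4, 0 and 2 ribosomal protein genes were higher after KCl (11.9%, 6.38% and 6.74% of genes) and 1, 3 and 1 lower (9.95%, 4.78% and 5.71%). After Bic 3, 3 and 1 were higher (8.98%, 11.7% and 4.14%) and 0 lower (7.53%, 10.6% and 4.42%). DESeq2 called 1 gene after 15 min of Bic and 0 in the other 5 comparisons. The medians were between -0.09 and 0.16, the highest after 180 min of Bic, where 48 of 57 genes lay above 0. The 6 comparisons share their 3 basal libraries.

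The exception was Rpl22l1. It had 96.1 and 98.2 CPM after 15 min of KCl and 91.1 and 112 CPM after 15 min of Bic, against 72.8, 78.8 and 64.3 CPM in basal cultures. All 4 stimulated libraries lay above the basal ones. It rose by 0.51 (SE 0.16, adjusted p = 0.038) and by 0.56 (SE 0.17, adjusted p = 0.0496), less than 1.5-fold, and was the single ribosomal protein gene at an adjusted p under 0.05 in each comparison (5.56% and 2.92% of genes rose, and 3.3% and 1.18% fell). After 45 min of Bic it had 84.3 and 101 CPM (0.44, SE 0.16, adjusted p = 0.080), and after 45 min of KCl 66.8 and 70.7 CPM, within the basal range. Both calls rest on few libraries: without any 1 of basal replicates 1 and 5 and of the stimulated libraries, 0 genes passed an adjusted p under 0.05 in either comparison, and without basal replicate 2, 2 genes passed after KCl and 1 after Bic.

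Silencing with TTX went with higher ribosomal protein mRNAs. The share of gene counts on the 89 genes was 0.773%, 0.771% and 0.820% in basal and 0.938%, 0.950%, 0.836% and 0.956% in basal TTX libraries. Depth was 2613680 to 3476123 gene counts in basal and 1389572 to 2686779 in basal TTX libraries, and its part was not tested. By the paper, controls of the washout were washed like it, while basal wells of the other arm had a small volume of medium exchanged. Silencing and handling may therefore both differ between these groups and cannot be told apart. At an adjusted p under 0.05, 15 of 57 genes rose (14.4% of genes) and 1 fell (16.1%), with a median of 0.26 against 0.00 over all genes and 51 genes above 0. The changes were small, and 1 gene was at least 1.5-fold higher (10.8% of genes) with 0 as much lower (10.8%). Without basal replicate 1 there were 6 rises, and without basal TTX replicate 4 there were 9. The single gene at 1.5-fold became 2 without basal TTX replicate 2 or 4 or basal replicate 5, and 3 without basal TTX replicate 1 or basal replicate 2.

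Rpl37rt had 200, 139, 122 and 122 CPM in basal TTX and 76.8, 51.7 and 92.2 CPM in basal cultures, and rose by 0.95 (SE 0.23, adjusted p = 0.0011). Among smaller changes, Rpl22 had 226, 206, 185 and 210 CPM against 154, 137 and 154 CPM (0.45, SE 0.10, adjusted p = 0.00089). Rps9 had 193, 152, 125 and 153 CPM against 108, 115 and 124 CPM (0.40, SE 0.13, adjusted p = 0.021). The groups of these 3 genes did not overlap, though for Rps9 the lowest basal TTX library stood just above the highest basal one. Rplp0 and Rplp1 rose by 0.33 (SE 0.12, adjusted p = 0.030) and 0.35 (SE 0.12, adjusted p = 0.026), and Rplp2 did not pass the test (0.20, SE 0.16). Rps4x, Rps20, Rps21, Rps26, Rps27rt, Rpl5, Rpl13, Rpl15 and Rpl37 also rose, with rises between 0.31 and 0.53.

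Rpl22l1 was the gene that fell. It had 56.1, 45.1, 41 and 56.6 CPM in basal TTX against 72.8, 78.8 and 64.3 CPM in basal cultures, and fell by 0.55 (SE 0.15, adjusted p = 0.0038), without overlap. Rpl22 and Rpl22l1 encode alternative proteins of the same place in the large subunit, and the Rpl22 protein is known to repress Rpl22l1. In basal TTX cultures the pair moved in opposite directions, with Rpl22 counted on a transcript record of the non-coding class. In 21DIV cultures of the maturation experiment after 180 min of Bic+4AP, Rpl22 rose and Rpl22l1 had a log2 fold change of 0.41 (SE 0.21, adjusted p = 0.19), and in 21DIV against 7DIV Rpl22 fell and Rpl22l1 had -0.04 (SE 0.20). The start windows of the pair differ in these letters: Rpl22l1 has the run of 10 bases shown above, and the longest run of Rpl22 at its 2 annotated starts is 4 bases.

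**Figure D5:**
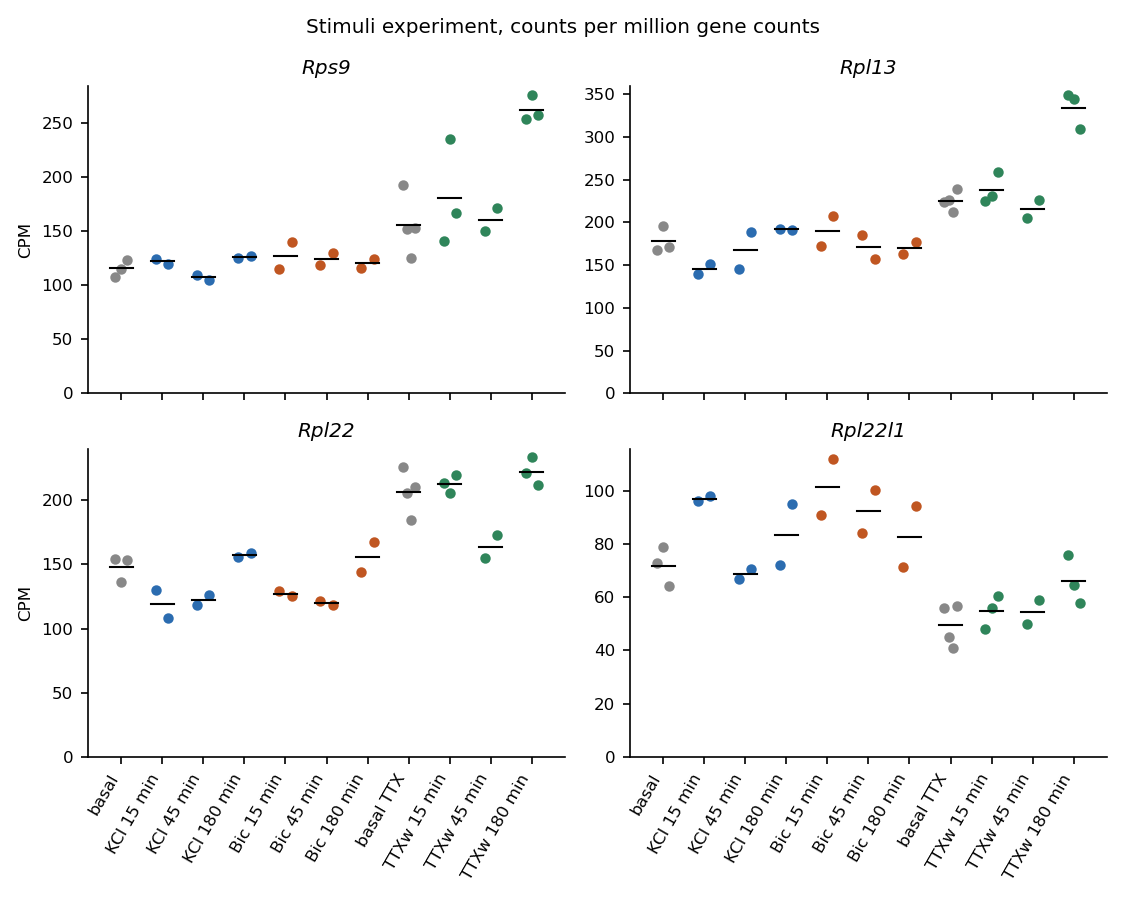
Level (y axis, CPM, from 0) of Rps9, Rpl13, Rpl22 and Rpl22l1 in each library of the stimuli experiment, by group (x axis), 1 point per library with a line at the group mean. Rps9 and Rpl13 are highest at TTXw 180 min, and Rpl22 is higher and Rpl22l1 lower in basal TTX than in basal cultures.

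After TTX was washed out no change passed the test within 45 min. At 15 and 45 min 0 of 57 genes passed an adjusted p under 0.05 in edgeR's test or in DESeq2 (0% of genes at 15 min, and 0.374% higher and 0.0333% lower at 45 min). At an unadjusted p under 0.05, 1 was higher and 2 lower at 15 min (2.95% and 3.34% of genes) and 0 higher and 5 lower at 45 min (5.63% and 4.41%). The medians were 0.02 and -0.15.

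By 180 min ribosomal protein mRNAs had risen across both subunits. The share of gene counts was 1.214%, 1.198% and 1.146% in the TTXw 180 min libraries, above every basal TTX library. The TTXw 180 min libraries held 1278660 to 2021236 gene counts and the basal TTX libraries 1389572 to 2686779. At an adjusted p under 0.05, 16 of 57 genes rose (9.64% of genes) and 0 fell (10.6%), with a median of 0.33 against 0.02 over all genes, and 54 genes lay above 0. The rises were spread over 2 of 3 P-stalk genes, 7 of 33 large subunit genes and 7 of 21 small subunit genes. At least 1.5-fold higher were 2 genes (7.33% of genes).

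Rps9 had 254, 276 and 257 CPM at 180 min and 193, 152, 125 and 153 CPM in basal TTX, and rose by 0.72 (SE 0.13, adjusted p = 9.6e-05). Rpl14 had 66.7, 69.3 and 81.3 CPM against 43.1, 44.5, 47.5 and 50.6 CPM and rose by 0.59 (SE 0.16, adjusted p = 0.0061). Both groups were clear of each other. Rpl13 had 349, 344 and 309 CPM against 224, 227, 212 and 239 CPM (0.53, SE 0.11, adjusted p = 0.00039). In the P-stalk, Rplp1 had 322, 337 and 314 CPM against 270, 220, 196 and 233 CPM (0.46, SE 0.12, adjusted p = 0.0044), and Rplp0 had 170, 136 and 141 CPM against 114, 107, 110 and 114 CPM (0.38, SE 0.12, adjusted p = 0.020). Rplp2 did not pass (0.33, SE 0.16, adjusted p = 0.17). The highest genes rose as well: Rpl4 had 2376, 2221 and 1910 CPM against 1712, 1814, 1552 and 1518 CPM (0.36, SE 0.09, adjusted p = 0.0029), and Rps20 had 1143, 1292 and 1204 CPM against 861, 993, 762 and 920 CPM (0.42, SE 0.10, adjusted p = 0.0028). The remaining rises were Rpl8, Rpl13a, Rpl26, Rpl27a, Rps3, Rps4x, Rps15, Rps24 and Rps26. Rps6 had 7.8, 10.4 and 20.3 CPM against 2.74, 5.41, 7.92 and 8.56 CPM, groups that overlap (0.93, SE 0.37, adjusted p = 0.073).

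The basal TTX libraries serve as the control here and as the treated group above, so the comparisons are not independent. Side by side, Rps9 had log2 fold changes of 0.40 from basal to basal TTX and 0.72 from basal TTX to TTXw 180 min, Rpl13 had 0.31 and 0.53, Rpl22 had 0.45 and 0.07, and Rpl22l1 had -0.55 and 0.36 (SE 0.16, adjusted p = 0.11). With each library left out in turn, 11 to 15 genes rose at TTXw 180 min. Without the filter on low counts, and in a fit of the compared groups alone, 9 rose. The 2 genes at 1.5-fold became 1 without basal TTX replicate 1 or 2 or TTXw replicate 3, and 4 without TTXw replicate 1.

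Other genes of the translation machinery moved with them at TTXw 180 min. Of 66 ribosome biogenesis genes 17 were at least 1.5-fold higher (7.33% of all genes) and 1 lower (6.69%), with a median of 0.40. Dkc1, the pseudouridine synthase of ribosomal RNA, rose by 1.23 (SE 0.28, adjusted p = 0.0011), Nop58, of the particle that methylates ribosomal RNA, by 1.22 (SE 0.21, adjusted p = 3.2e-05), and Gnl3, nucleostemin, by 0.94 (SE 0.17, adjusted p = 5.1e-05). In basal TTX against basal the same list had 0 higher and 5 lower (10.8% of all genes each way). Rack1 rose by 0.51 (SE 0.10, adjusted p = 0.00030) at TTXw 180 min, and had 0.10 (SE 0.10) in basal TTX. Of 72 genes for mitochondrial ribosomal proteins 2 were higher and 1 lower at TTXw 180 min (7.33% and 6.69% of all genes).

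Markers of other cells moved in both TTX comparisons. The summed level of the 11 astrocyte markers was 2702 to 3287 CPM in basal, 7820 to 8881 CPM in basal TTX and 11995 to 16208 CPM in TTXw 180 min libraries. All 11 were at least 1.5-fold higher in basal TTX, and 6 were higher still at TTXw 180 min. The oligodendrocyte lineage markers had 6 of 9 higher in each comparison (823 to 1256, 2313 to 2365 and 3498 to 4226 CPM), and the proliferation markers 3 and 5 of 9 higher. The 14 neuron markers summed to 10141 to 10911, 8001 to 9014 and 5149 to 6069 CPM, with 3 and 7 of them at least 1.5-fold lower. No astrocyte, oligodendrocyte or neuron marker was at 0 in every library of a group. The part of these shifts in the rise of the ribosomal protein genes was not tested.

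The paralogues and retrogenes differed in how far they were expressed. The heart and muscle form Rpl3l, the testis forms Rpl10l and Rpl39l, and Rps4l had between 1 and 144 counts over all libraries of an experiment and were not tested. Rpl7l1, Rpl22l1, Rpl36al, Rps27l and Rps27rt were tested in both experiments, with mean levels of 34, 60.5, 12.1, 35.2 and 31.8 CPM in the maturation libraries. Rpl7l1 and Rpl36al passed in 0 of the 19 comparisons, Rps27rt rose in basal TTX by 0.36 (SE 0.12, adjusted p = 0.022), and Rps27l changed only in the 2 comparisons of 21DIV cultures given above. Rps27l rose there, whereas in the stimuli experiment its log2 fold changes were -0.48 (SE 0.23, adjusted p = 0.22) after 15 min of KCl and -0.21 (SE 0.24, adjusted p = 0.72) after 15 min of Bic.

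Some genes of known roles were too low to be tested. Fau, whose ribosomal protein is made as a fusion with a protein like ubiquitin, averaged 1.35 CPM over the maturation libraries and 2.25 CPM over the stimuli libraries and was not tested, and neither was Rps27a. Rps25, which viral internal ribosome entry sites need, had 7.23 to 18.8 CPM over all libraries and passed in 0 of the 19 comparisons, as did Rps6. Rpsa was tested in the stimulated groups of the maturation experiment, where its log2 fold change ranged from -1.07 to 0.66 with standard errors of 0.55 to 0.63, and it did not pass in any of them.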

How the data were processed

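The authors aligned 3′ reads (CEL-Seq2, polyA RNA) with STAR to mm10 and counted them per RefSeq transcript with ESAT. The deposited counts carry no normalization, and the handling of molecular identifiers is not given in the sources used here. Transcripts were matched to symbols with the RefSeq annotation of GRCm38.p6 (80.76% and 80.88% matched; 18.52% and 19.23% of counts were left out), and the transcript with the most counts stood for its gene. Genes above 5 CPM in at least 2 libraries were tested with edgeR 4.0.16 in R 4.3.3 (quasi-likelihood test, TMM, 1 coefficient per group, Benjamini-Hochberg adjustment over all genes tested). The basal stage comparison was fitted on the 6 basal libraries, every other one on all libraries of its experiment. Levels are CPM without TMM factors. A gene was called at an adjusted p under 0.05 and at least 1.5-fold.

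Alternatives were RLE factors, library size alone, the likelihood ratio test, DESeq2 1.42.0, other filters, thinned counts, counts summed over transcripts, a replicate block, other libraries in the fit and leaving out each library. Counts at an adjusted p alone were added after values were seen. The genes and lists were chosen with earlier results of these data known. The text names the 3 largest rises and falls called in each comparison (5 for the stage and basal TTX comparisons) at a mean log2 CPM of at least 3, paralogues, fusion genes, P-stalk genes, Rack1, Rps6, Rpl10a, Rps25, Rpsa and the 3 highest genes. Other genes, and Dipk1a, were named after their values were seen. Some genes are not reported here. The code was tested on simulated data.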

Additional observations from a re-analysis of the deposited data

Results flagged for a closer look

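Of 58 values examined in the group of 4 libraries, 1 stood apart by Dixon's criterion for 4 values (gap over range 0.8505), and chance alone gives about 1 in 20. It is the share of gene counts on ribosomal protein genes in basal TTX replicate 3, 0.836%, against 0.938% to 0.956% in the other 3 libraries. Without this library 16 genes rose in basal TTX against basal and 11 rose at TTXw 180 min at an adjusted p under 0.05.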

How the results depend on the processing

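TMM, RLE and plain library size gave every median of the ribosomal protein genes, set against the median of all genes, within 0.01 in the 4 comparisons with more than 10 genes changed. Of 283 values for single genes under an alternative, 230 kept their side of the threshold, 53 lost it and 0 reversed. Of 385 counts of genes called, 60 moved by over 1.5 times, and of 299 medians 17 moved by more than the spread between libraries. The cause was not tested beyond what each alternative removes. At 21DIV against 7DIV, Rplp0, Rpl15, Rpl22, Rpl7 and Rps9 were called in 16 of 16 alternatives, and Rps9 (TTXw 180 min) and Rpl37rt (basal TTX) in 17 of 17. After Bic+4AP 180 min at 21DIV, Rpl37rt and Rpl5 were called in 14 of 15, Rpl13 in 13 and Rps27l in 6 of 15, after KCl 15 min Rps27l in 12, Rpl22l1 in 10 and Rpl5 in 9 of 16, and Rpl14 (TTXw 180 min) in 12 of 17.

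The replicate numbers of the titles did not pair the libraries: over 40 pairs with the same number, correlations of their deviations were -0.247 to 0.0995. With the number as a replicate block, 8 genes were called for 21DIV against 7DIV (median -0.3169), 0 for KCl 180 min at 7DIV, and 2 for basal TTX, where 4 rose at an adjusted p under 0.05, and the median for KCl 15 min at 7DIV was -0.03405. Under the block Rps15a, Rpl9 and Rps27l lost their calls and Rpl22l1 passed after neither KCl nor Bic at 15 min.

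Without the filter on low counts, 0 genes were called for KCl 180 min at 7DIV, 1 each for KCl 180 min and Bic+4AP 15 min at 21DIV, TTXw 45 min and TTXw 180 min, and 2 for basal TTX, and the interaction passed 3 genes for KCl 15 min, 1 for KCl 180 min and 2 for Bic+4AP 180 min. The medians became -0.03599 (KCl 15 min at 7DIV), 0.09111 (Bic+4AP 180 min at 7DIV) and 0.1846 (basal TTX). With counts thinned to the smallest library, the calls were 0 (KCl 180 min at 7DIV), 1 (KCl 15 min at 21DIV), 3 (basal TTX) and 1 (interaction, KCl 15 min). With counts summed over transcripts, and in a fit of the compared groups alone, they were 0 for KCl 180 min at 7DIV and 1 for KCl 15 min at 21DIV, and the latter fit gave 1 for KCl 180 min at 21DIV. RLE factors and DESeq2 each called 1 for Bic 15 min. For the interaction at KCl 15 min the likelihood ratio test passed 2 and DESeq2 3, and DESeq2 passed 1 at Bic+4AP 180 min. With library size alone the medians were -0.1443 for KCl 45 min and -0.0777 for Bic 45 min.

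Leaving out each library in turn gave 5 to 10 calls for 21DIV against 7DIV (median -0.3228 to -0.1572), 0 to 1 for KCl 180 min at both stages, 0 to 4 for KCl 15 min at 21DIV, 2 to 13 for Bic+4AP 180 min at 21DIV, 1 to 4 for TTXw 180 min and 1 to 3 for basal TTX. In the stimuli experiment it gave 0 to 2 for KCl 15 min (median -0.1032 to 0.1506) and 0 to 1 for Bic 15 min (median -0.02596 to 0.2639). For the interactions it gave 0 to 2 (KCl 15 min), 0 to 1 (KCl 180 min) and 0 to 2 (Bic+4AP 180 min). The other medians ranged from -0.05737 to -0.01904 (KCl 15 min at 7DIV), 0.07036 to 0.1491 (Bic+4AP 180 min at 7DIV), -0.09528 to -0.0157 (KCl 45 min), -0.06441 to 0.1472 (KCl 180 min), 0.08037 to 0.2607 (Bic 180 min) and -0.3662 to -0.006067 (TTXw 45 min). Where this leaves 1 library in a group, it is assumed to vary like the other groups.

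Depth limits the low genes most: for 21DIV against 7DIV the standard error of the log2 fold change was 0.33 for Rps6 and 0.11 for Rpl4.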
